A study of Mus musculus with 8 samples.

Results

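The markers commonly used to tell alternatively from classically activated macrophages were followed through messenger RNA libraries of the injured mouse retina. They were chosen by symbol (Arg1, Nos2, Mrc1, Chi3l3, Retnla, Mgl2, Clec10a, Cd163, Msr1 and Marco), and all 10 are among the 22558 gene symbols of the deposited tables. The libraries comprised 4 of infiltrating macrophages, numbered 5 to 8 in the labels with titles that begin with GFP, and 4 of microglia, the macrophages that live in retina and brain, numbered 1 to 4 with titles that begin with cont. Every library was made from retina taken 7 days after the injury, and the mice, of mixed C57BL/6; 129 background, were about 5 months old. In all groups the genotype was Msi1-CreERT2/+; R26R-DTA/+, that is, a tamoxifen-inducible Cre recombinase under Msi1 control together with a Cre-dependent diphtheria toxin A allele that is lethal to any cell once recombined. No group without injury enters the comparison. The sources used here do not give what GFP marks, how the cells were sorted or whether the libraries came from separate animals. P-values therefore measure the spread between these libraries and nothing wider, and that spread may be technical.

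Macrophages are commonly described by their response to cytokines. Interferon-gamma and bacterial products induce Nos2, the inducible nitric oxide synthase, while interleukins 4 and 13, acting through the transcription factor STAT6, induce Arg1, Chi3l3, Retnla and the lectin receptors Mrc1, Mgl2 and Clec10a in mouse macrophages. Arg1 and Nos2 use the same substrate, arginine. The scavenger receptors Cd163, Msr1 and Marco take up haemoglobin complexes, modified lipoproteins and microbial particles and are read less uniformly as signs of either state.

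The galactose-type lectins Mgl2 and Clec10a rose in infiltrating macrophages, and in microglia they were next to absent from the libraries. Chi3l3 also rose, by a call that several single libraries decide. Arg1 and Mrc1 had higher values in macrophages that did not pass the test, and Msr1 was abundant in both populations. Nos2, Retnla and Marco reached 1 FPKM (a fragment count divided by transcript length and by library depth, deposited by the authors; levels of different genes can thus be compared per length) in a single library each, and Cd163 in none.

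Of the 10 markers, 6 reached 1 FPKM in at least 4 libraries and were tested with the other genes (9307 in all) by limma on log2(FPKM + 1), with Benjamini-Hochberg adjustment. Of these 6, 3 passed an adjusted p of 0.05, all of them higher in macrophages. Over all tested genes 2.39% passed, 1.68% higher and 0.709% lower. An unadjusted p below 0.05, in either direction, was found for 1394 of the 9307 genes, beside which such counts below have to be read. Mrc1, Chi3l3, Mgl2 and Clec10a entered the test through the macrophage libraries alone, so their count says little by itself. The filter also fixed in advance that their macrophage values lay above all microglial values. The tested genes as a whole had a median log2 fold change of 0.37, above which each fold change has to be read. In bulk libraries a smaller share of cells that express a gene and less RNA per cell cannot be told apart.

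Facts of the libraries bear on every value. The FPKM of all genes summed to 300925 in macrophage 5, 512101 in macrophage 6, 207154 in macrophage 7 and 242232 in macrophage 8, and to between 296110 and 392952 in microglia, so values in macrophage 6 sit high and those in macrophage 7 low in general. The depth read off the low values was lowest in microglia 1, at about 11.6 M fragments, and lay between 18.8 and 24.8 M in the rest. Microglia 2 had 5957 genes at 1 FPKM or more, against between 8128 and 10229 in the other libraries. Its low values, Arg1 and Chi3l3 at 0 included, have to be read beside that. Microglia 2 and microglia 3 each listed at 0 a gene that had 20 FPKM or more in every other library (1 gene each), so an exact 0 can be a failed estimate. Markers of microglia summed to between 719.9 and 2442 FPKM in macrophages and to between 2494 and 3489 in microglia, and markers of monocytes to between 119.6 and 1050 FPKM in macrophages and between 6.03 and 33.1 in microglia. The sum of 4 Y-linked genes was at most 1.97 FPKM in the macrophage libraries and 25.8, 11.7, 16.5 and 0.0533 in microglia 1 to 4. When Y-linked expression was added to the fit as a term, which in effect sets the macrophages against microglia 4, 0 of the 6 tested markers passed the limma test and 3 had an unadjusted p below 0.05.

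**Figure D1:**
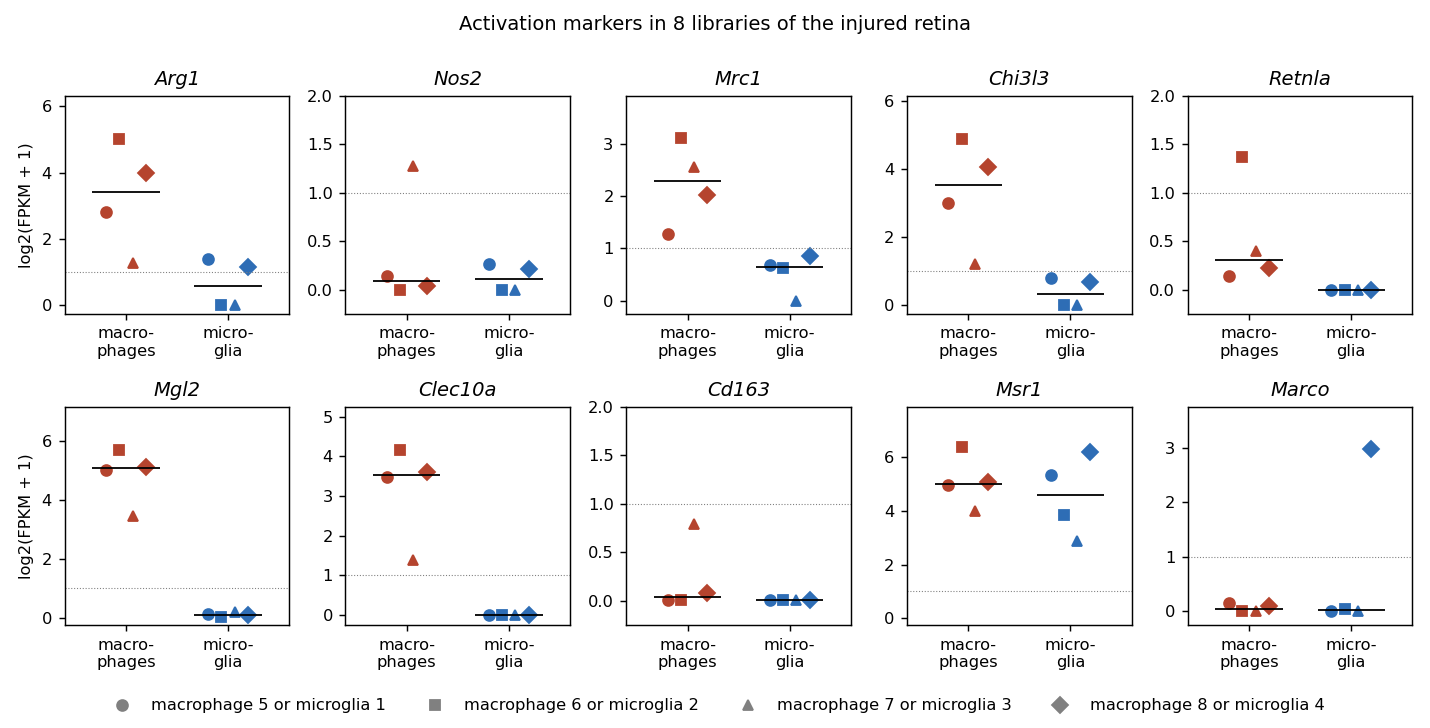
Each panel plots 1 marker as log2(FPKM + 1), with infiltrating macrophages (red) left of microglia (blue), 1 point per library (its shape gives the library and links none across the groups) and the median as a line; the dotted line stands at 1 FPKM. Mgl2 and Clec10a separate the populations by the widest gaps, whereas Msr1 overlaps. Nos2, Retnla and Marco are low except in single libraries, and Cd163 stays below 1 FPKM in every library.

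Promoter sequences are shown for 3 of the cytokine-induced markers, the called genes Chi3l3 and Mgl2 and the barely measured Retnla. They are the 250 bases before the annotated start from RefSeq (build GRCm38.p6), which held such a window for 6 of the 10 markers. Capitals mark matches, on either strand, to TTCNNNNGAA (the spacing bound by STAT6) or GAGGAAG (a core of sites for the myeloid factor PU.1); no matches overlapped in these 3 windows. The windows are chr3:106167565-106167814 (minus strand) for Chi3l3, which RefSeq calls Chil3, chr16:48842359-48842608 (plus strand) for Retnla and chr11:70130107-70130356 (plus strand) for Mgl2.
Chi3l3: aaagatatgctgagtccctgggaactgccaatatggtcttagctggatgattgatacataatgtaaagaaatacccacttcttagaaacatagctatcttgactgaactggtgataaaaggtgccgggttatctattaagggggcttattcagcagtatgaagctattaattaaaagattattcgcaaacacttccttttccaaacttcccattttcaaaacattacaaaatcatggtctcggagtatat
Retnla: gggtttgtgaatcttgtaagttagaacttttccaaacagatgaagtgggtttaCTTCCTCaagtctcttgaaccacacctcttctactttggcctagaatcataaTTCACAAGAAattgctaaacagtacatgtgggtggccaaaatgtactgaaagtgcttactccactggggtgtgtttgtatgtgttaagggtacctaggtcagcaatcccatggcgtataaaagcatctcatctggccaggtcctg
Mgl2: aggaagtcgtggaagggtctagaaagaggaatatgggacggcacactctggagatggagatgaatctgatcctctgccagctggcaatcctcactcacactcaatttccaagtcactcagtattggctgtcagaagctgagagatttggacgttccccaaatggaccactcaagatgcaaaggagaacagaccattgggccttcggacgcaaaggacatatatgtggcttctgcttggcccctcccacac

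Retnla held a TTCNNNNGAA match that begins at position -145 from its start, and a GAGGAAG match on the opposite strand at -197. The Chi3l3 and Mgl2 windows held neither motif. Of the windows not printed, that of Mrc1 held 2 GAGGAAG matches, that of Marco held 1, and that of Cd163 held neither motif. Among 32851 RefSeq windows of the same length, 5.85% held TTCNNNNGAA and 10.6% held GAGGAAG. A match describes letters and does not show a bound site.

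The enzymes of arginine use were first compared. Arg1, the arginase that turns arginine into ornithine and urea (mm9 chromosome 10, 24635013 to 24647276), had 6.03, 31.3, 1.41 and 15.0 FPKM in macrophages 5 to 8 and 1.63, 0, 0 and 1.22 FPKM in microglia 1 to 4. Macrophages 5, 6 and 8 lay above every microglial library, whereas macrophage 7 lay between microglia 1 and microglia 4. The log2 fold change was 2.64 ± 0.77 (SE, n = 4 each; 95% interval 1.05 to 4.22), which did not pass the limma test over all genes (adjusted p = 0.0702). Without macrophage 7 it was 3.31 and passed the limma test (adjusted p = 0.0229). That was the single one of 19 alternatives, the permutation test over all genes aside, in which Arg1 was called. Log2 fold changes lay between 1.92 and 4.39 over these 19. A two-sided exact permutation test of the Arg1 difference gave p = 0.0571, where 4 libraries against 4 allow no value below 0.0286.

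Nos2 (mm9 chromosome 11, 78734361 to 78773626) stood at 0.103, 0, 1.42 and 0.0227 FPKM in macrophages 5 to 8 and at 0.197, 0, 0 and 0.157 FPKM in microglia 1 to 4. It reached 1 FPKM in macrophage 7 alone, where the value equals about 133 fragments at the estimated depth, and it was not tested. The same library had the lowest Arg1 of the macrophages, so that Arg1 and Nos2 stood at 1.41 and 1.42 FPKM there, while Arg1 exceeded Nos2 by 58.5 times in macrophage 5. In macrophage 8 Nos2 rested on about 2.03 fragments, too few for a ratio. In microglia 1 and 4 the ratio was 8.25 and 7.77, and in macrophage 6 Nos2 was listed at 0 beside the highest Arg1 of the series.

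Other genes of arginine and nitric oxide metabolism gave no call. Of 16 listed, 10 were tested and 0 passed the limma test in either direction, with 0 at an unadjusted p below 0.05 and a median log2 fold change of 0.51, against 0.37 over all tested genes. The most abundant was Slc3a2, a shared chain of amino acid transporters, with 56.4, 60.6, 28.6 and 26.1 FPKM in macrophages 5 to 8 and 50.9, 74.7, 51.3 and 50.7 FPKM in microglia 1 to 4 (adjusted p = 0.711). These groups overlapped.

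Chi3l3, the secreted chitinase-like protein also known as Ym1 (mm9 chromosome 3, 105950472 to 105970482), had 6.99, 28.4, 1.31 and 15.5 FPKM in macrophages 5 to 8 and 0.746, 0, 0 and 0.601 FPKM in microglia 1 to 4. The groups did not overlap, which the filter had fixed, and the gap between macrophage 7 and microglia 1 was small. Macrophages lay wholly above microglia in 5.72% of all tested genes and wholly below in 1.96%. The log2 fold change was 2.91 ± 0.74 (SE, n = 4 each), and it passed the limma test (adjusted p = 0.0309). The call was lost without macrophage 5, 6 or 8 or microglia 1 or 3, with adjusted p between 0.0536 and 0.108, and without microglia 2 and 3 together (0.114). It was also lost with no filter on low values (0.32985), with a pseudocount of 0.1 (0.0811) and when Y-linked expression entered as a term (0.9999). It held in 10 of 19 alternatives, the permutation test over all genes aside.

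Reads of Chi3l3 may be shared with its near copy Chi3l4, whose own values were 1.77, 6.34, 3.26 and 3.25 FPKM in macrophages 5 to 8 and 0.445, 0, 0 and 1.56 in microglia 1 to 4 (adjusted p = 0.138). In macrophage 7 Chi3l4 stood above Chi3l3, and in the other 3 macrophage libraries below it. The division of reads between the pair depends on the authors' quantification, which leaves the level of each uncertain.

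Retnla, a small secreted protein of the resistin family (mm9 chromosome 16, 48842665 to 48844574), was listed at 0 in all 4 microglial libraries and stood at 0.0986, 1.59, 0.317 and 0.163 FPKM in macrophages 5 to 8. Its transcript is short, so that 1 fragment equals between 0.0901 and 0.193 FPKM over the libraries, and the macrophage values correspond to about 1.09, 15.3, 3.28 and 1.61 fragments. It was measurable in macrophage 6 at best. Retnlg, a related gene known from neutrophils, had 1.06, 61.3, 18.7 and 5.57 FPKM in macrophages 5 to 8 and was listed at 0 in microglia. Both genes were highest in macrophage 6.

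Among the lectin receptors, Mgl2 gave the largest fold change of the 5 tested markers for which one is given. Mgl2, a galactose-type C-type lectin also known from dendritic cells (mm9 chromosome 11, 69943859 to 69951044), had 31.3, 50.02, 9.78 and 33.8 FPKM in macrophages 5 to 8 and 0.0842, 0.0168, 0.148 and 0.0600 FPKM in microglia 1 to 4. The microglial values equal at most about 4.14 fragments, and the lowest macrophage library lay far above them. It averaged 31.2 ± 16.5 FPKM in macrophages and 0.0774 ± 0.0550 FPKM in microglia (SD, n = 4 each), with a log2 fold change of 4.70 ± 0.69 (SE) and an adjusted p of 0.000202 by limma. The permutation test over all genes aside, it was called in 19 of 20 alternatives. It lost the call when Y-linked expression entered as a term (4.38, limma adjusted p = 0.0727). Microglia 4, the microglial library that like the macrophages held next to no Y-linked RNA, stood at 0.0600 FPKM. Dendritic cell markers summed over 8 genes to 61.2, 68.4, 16.6 and 155 FPKM in macrophages 5 to 8 and to 3.86, 2.58, 34.9 and 8.08 in microglia 1 to 4. Of the 3 tested, 0 passed and 3 had an unadjusted p below 0.05 by limma. Among the genes of that list that reached 1 FPKM in too few libraries to be tested, Ccr7 had 15.7, 11.1, 0.165 and 62.4 FPKM in macrophages 5 to 8 and was listed at 0 in all microglia, Itgae reached 21.3 FPKM in macrophages and at most 0.672 in microglia, and Clec9a stayed below 1 FPKM everywhere. Their part in the Mgl2 and Clec10a values was not tested.

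Clec10a, the neighbouring galactose-type lectin (mm9 chromosome 11, 69980125 to 69984338), had 10.1, 16.9, 1.63 and 11.1 FPKM in macrophages 5 to 8 and was listed at 0 in all 4 microglial libraries, for which no fold is given. The difference passed the limma test (adjusted p = 0.00571). Apart from the permutation test over all genes, it lost its call with no filter on low values (0.157) and when Y-linked expression entered as a term (0.509). Mgl2 exceeded Clec10a by 3.11, 2.96 and 3.04 times in macrophages 5, 6 and 8 and by 6.01 times in macrophage 7. Both belong to a small family of similar genes, so some reads could have been divided between them.

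Mrc1, the mannose receptor CD206 that takes up glycoproteins (mm9 chromosome 2, 14151041 to 14253650), had 1.43, 7.67, 4.86 and 3.08 FPKM in macrophages 5 to 8 and 0.601, 0.547, 0 and 0.816 FPKM in microglia 1 to 4. All macrophage libraries lay above all microglial libraries, but the log2 fold change of 1.70 ± 0.58 (SE, n = 4 each; 95% interval 0.51 to 2.89) did not pass the limma test (adjusted p = 0.143; range 0.0953 to 0.9999 over 19 alternatives). The exact permutation test of this single difference gave its smallest possible p, 0.0286. Mrc1 entered the test through the macrophage libraries alone, which fixed both this p and the separation in advance.

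Mrc1 did not follow the other lectins across the macrophage libraries. It was lowest in macrophage 5, whereas Mgl2 and Clec10a were lowest in macrophage 7, where Mrc1 exceeded its values in macrophages 5 and 8. Neutrophil markers, summed over 9 genes, stood at 42.5, 246, 141 and 79.5 FPKM in macrophages 5 to 8 and ranked the libraries as Mrc1 did on the deposited scale. The sums lay between 0.667 and 14.3 FPKM in microglia. In macrophage 6 S100a8, S100a9 and Retnlg held 92.0, 81.8 and 61.3 FPKM of the neutrophil sum. Ltf, Camp and Ngp of that list stayed below 1 FPKM in every library. Markers of border-associated macrophages, a resident population rich in Mrc1, summed to 252, 665, 307 and 135 FPKM in macrophages 5 to 8 and to between 95.8 and 176 in microglia, and of 5 tested genes of that list 2 were called higher, Pf4 (adjusted p = 0.0363) and Clec12a (0.0202), 0 lower, and 4 had an unadjusted p below 0.05. Folr2, among these 4, was lower in macrophages (log2 fold change -1.84), and Cbr2 reached 24.8 FPKM in microglia against at most 1.89 in macrophages. Ms4a7 held 207, 506, 179 and 96.0 FPKM of the sums in macrophages 5 to 8. Lyve1, also of that list, stayed below 1 FPKM in every library. The part of either cell type in the Mrc1 values was not tested.

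Msr1, the class A scavenger receptor for modified lipoproteins (mm9 chromosome 8, 40667054 to 40728032), was the most abundant marker in microglia and did not separate the populations. It had 30.3, 82.6, 15.0 and 32.4 FPKM in macrophages 5 to 8 and 39.7, 13.2, 6.34 and 71.6 FPKM in microglia 1 to 4. It averaged 40.1 ± 29.4 FPKM in macrophages and 32.7 ± 29.7 FPKM in microglia (SD, n = 4 each), and the ranges overlapped almost fully. The log2 fold change of 0.55 ± 0.68 (SE) had a 95% interval of -0.86 to 1.95 (limma adjusted p = 0.756). It lay at -0.66 without microglia 2 and 3 and at -0.74 once Y-linked expression was a term, so no direction is given.

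The other scavenger receptors were low. Cd163, the receptor for haemoglobin bound to haptoglobin (mm9 chromosome 6, 124254669 to 124280545), stood at 0.00371, 0.00234, 0.729 and 0.0544 FPKM in macrophages 5 to 8 and at or below 0.00623 in microglia, less than 1 fragment at the estimated depth. By the threshold of 1 FPKM it was too low to measure in all libraries, although the value in macrophage 7 equals about 73.2 fragments. Haemoglobin and other red cell transcripts summed to at most 23.7 FPKM in macrophages, and to 160, 165, 2437 and 0.683 FPKM in microglia 1 to 4, while Cd163 stayed below 1 fragment in each of these microglial libraries.

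Marco, a collagen-like scavenger receptor of microbial particles (mm9 chromosome 1, 122371115 to 122401661), had 0.109, 0, 0 and 0.0724 FPKM in macrophages 5 to 8 and 0, 0.0271, 0 and 6.90 FPKM in microglia 1 to 4. It was measured in microglia 4 alone, at about 267 fragments. That library also had the highest Msr1 of the microglia.

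In order of their median level in macrophages, the markers ran from Mgl2 (32.5 FPKM) and Msr1 (31.4) through Chi3l3 (11.3), Clec10a (10.6) and Arg1 (10.5) to Mrc1 (3.97), and then to Retnla (0.240), Nos2 (0.0628), Marco (0.0362) and Cd163 (0.0291). Mgl2 exceeded Msr1 in 2 of 4 macrophage libraries, Chi3l3 exceeded Clec10a in 2 and Clec10a exceeded Arg1 in 2, so these neighbours did not differ beyond their spread. Msr1 exceeded Chi3l3, and Mrc1 exceeded Retnla, in 4 of 4. In microglia Msr1 (26.5 FPKM) was followed at a distance by Arg1 (0.612) and Mrc1 (0.574), and Msr1 exceeded Arg1 in 4 of 4 libraries.

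The macrophage libraries also differed among themselves. On the deposited scale Arg1, Chi3l3, Mgl2, Clec10a and Msr1 all ran from macrophage 6, the highest, through 8 and 5 to macrophage 7. Part of this order belongs to the scale. Rescaled so that the genes with a usable status summed to 1000000 in each library, Arg1 stood at 62.8 in macrophage 6 and 63.5 in macrophage 8, against 20.5 in macrophage 5 and 6.94 in macrophage 7, and Clec10a at 34.2, 33.9, 8.02 and 47.1 in macrophages 5 to 8. Macrophage 7 remained the lowest for Arg1, Chi3l3, Mgl2, Clec10a and Msr1, and it became the highest for Mrc1, at 23.9 against 4.88, 15.4 and 13.04 in macrophages 5, 6 and 8. Monocyte markers were also lowest in macrophage 7, at 120 FPKM against 518, 1050 and 484 in macrophages 5, 6 and 8, as were the dendritic cell markers. Their part in the marker values was not tested.

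**Figure D2:**
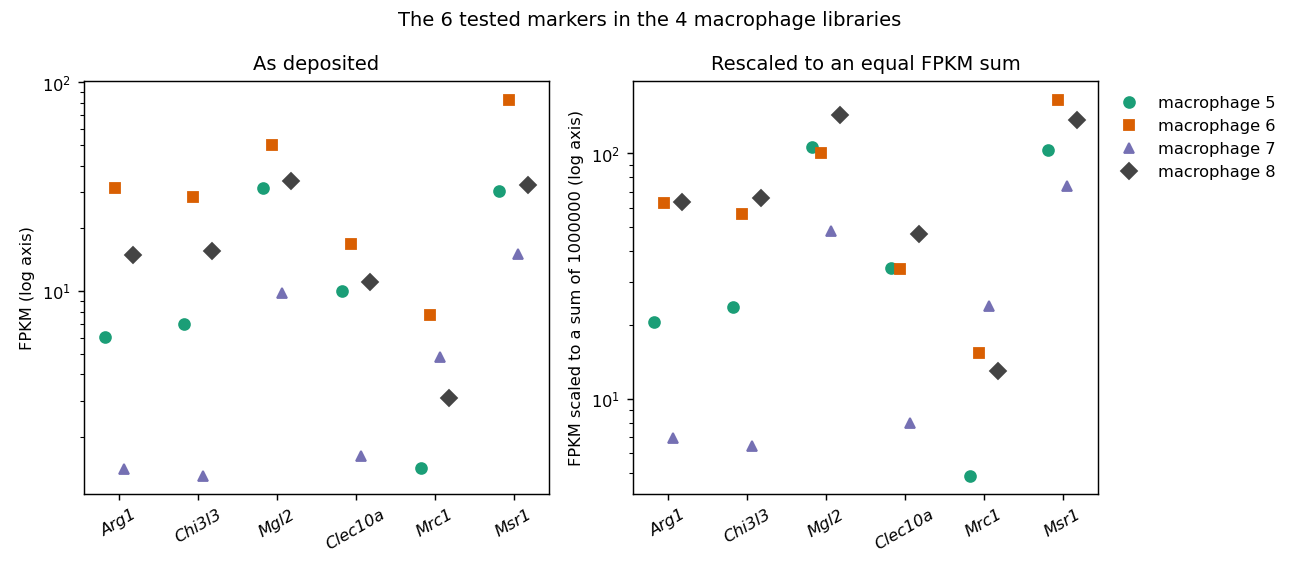
The 6 tested markers are plotted for macrophages 5 to 8 on log axes, as deposited FPKM on the left and scaled to a sum of 1000000 on the right, 1 symbol per library. Macrophage 7 is lowest for 5 markers on either scale and, after rescaling, highest for Mrc1, while the lead of macrophage 6 over macrophage 8 in Arg1 closes from 31.3 against 15.0 FPKM to 62.8 against 63.5 after rescaling.

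Arg1 and Chi3l3 had nearly the same level in each macrophage library, with ratios of 0.863, 1.103, 1.07 and 0.964 in macrophages 5 to 8. Over the 8 libraries their log2(FPKM + 1) values had a Pearson r of 0.990 (Spearman rho 0.976). Among the tested genes, leaving out clones, predicted genes and small RNAs, each was the gene most like the other. Next came Dennd1b, a regulator of vesicle traffic (r = 0.981 with Arg1 and 0.988 with Chi3l3), Mbnl2, a splicing regulator (0.981 with Arg1), and Ms4a6b, a membrane protein of myeloid and lymphoid cells (0.983 with Chi3l3). These correlations describe 8 libraries that share population and scale, and carry no test.

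Mgl2 was most like Lpcat4 (r = 0.998), an enzyme of phospholipid remodelling, Ccdc102a (0.996) and Sirpb1b (0.995), a signal-regulatory protein of myeloid cells. Clec10a was most like Emb (0.996), an immunoglobulin-family adhesion protein, Anxa1 (0.992), the phospholipid-binding annexin, and again Lpcat4 (0.988). Mrc1 was most like Retnlg (0.965), Stap1 (0.964), a signalling adaptor, and Zrsr2 (0.959), a splicing factor. Msr1 was most like Fez2 (0.970), Nr2c1 (0.961), an orphan nuclear receptor, and Atp6v1b2 (0.958), a subunit of the lysosomal proton pump. Among the members, Msr1 was least like Mgl2 (0.349).

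**Figure D3:**
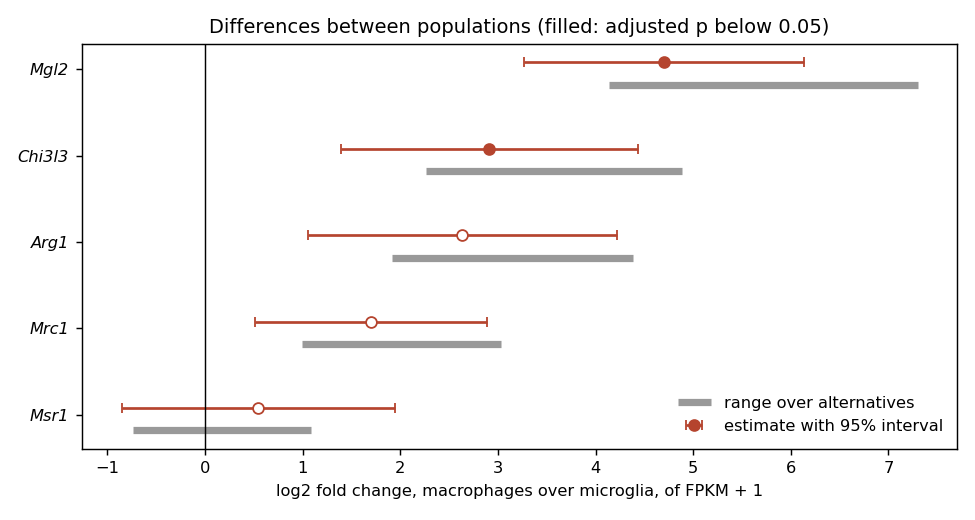
Log2 fold changes of FPKM + 1, macrophages over microglia, are drawn with their 95% intervals (red; filled where the adjusted p was below 0.05) above the range over the alternatives in processing (grey). Mgl2 and Chi3l3 are filled, and Msr1 spans 0. Clec10a, listed at 0 in all microglial libraries, is left out because the size of its fold change would rest on the pseudocount.

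Genes of the signals upstream were measured in both populations. Of 16 listed genes of interleukin 4 and 13 signalling, 11 were tested and 0 passed the limma test in either direction, with 0 at an unadjusted p below 0.05; their median log2 fold change was 0.71, against 0.37 over all tested genes. Il2rg, the shared gamma chain of the receptor, was the most abundant, at 45.1, 100.1, 26.4 and 72.6 FPKM in macrophages 5 to 8 and 40.5, 47.3, 29.6 and 49.7 FPKM in microglia 1 to 4 (adjusted p = 0.777). Of the ligands, singled out after their values were seen, Il13 was listed at 0 in every library, and Il4 stood at 0.102, 0, 1.09 and 0.429 FPKM in macrophages 5 to 8 and at 0, 0, 0 and 2.64 in microglia 1 to 4.

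Among 13 genes of interferon-gamma and lipopolysaccharide signalling, 12 were tested, and 2 passed, Jak2 and Myd88, higher in macrophages; 4 had an unadjusted p below 0.05, and the median log2 fold change of the list was 0.95. Jak2, a kinase of cytokine receptors, had 7.09, 19.1, 5.35 and 28.6 FPKM in macrophages 5 to 8 and 1.35, 0, 0.280 and 2.73 in microglia 1 to 4 (log2 fold change 2.85 ± 0.73 SE, limma adjusted p = 0.0348). The call was lost without macrophage 5, 6 or 8 or microglia 1 or 3. Myd88, the adaptor of Toll-like receptors, had a log2 fold change of 2.53 ± 0.66 (adjusted p = 0.0401), lost without macrophage 5, 6 or 8 or microglia 2 or 3. Without microglia 2 and 3 neither passed. Ifng itself, named after its values were seen, did not reach 1 FPKM in any library.

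Other genes by which macrophages are called alternatively activated included 1 called higher and 0 lower among 12 tested of 21. Their median was 0.71, and 5 had an unadjusted p below 0.05, among them Tgm2, which was lower in macrophages (log2 fold change -1.29). The called gene was Ccl17, a chemokine for T cells and a product of dendritic cells. It had 48.0, 97.5, 1.07 and 20.4 FPKM in macrophages 5 to 8 and 0, 0, 0.164 and 0 in microglia 1 to 4. Its limma adjusted p was 0.00552, and 0.0528 without macrophage 6. Ccl17 entered the test through the macrophage libraries alone and lost its call with no filter on low values (0.280). Like Mgl2 and Clec10a it was lowest in macrophage 7. Of the untested genes of this list, named after their values were seen, Ccl22 had 3.76, 23.9, 0.0779 and 17.6 FPKM in macrophages 5 to 8. Il1r2 had 15.3, 8.30, 0.0366 and 18.7 FPKM there, and both were listed at 0 in all microglia. The remaining untested genes of the list reached at most 1.94 FPKM, for Cd209e in macrophage 7. Other genes of classical activation included 2 called higher and 0 lower among 15 tested of 23 in the tables. Their median was 1.45, and 9 had an unadjusted p below 0.05, among them Tnf, which was lower in macrophages (log2 fold change -1.69). Irf1, an interferon-induced transcription factor, had 39.4, 39.6, 29.9 and 30.3 FPKM in macrophages 5 to 8 and 4.81, 0.0269, 0.757 and 13.5 in microglia 1 to 4 (adjusted p = 0.0113). Ptgs2, the inducible cyclooxygenase, had 1.58, 8.50, 1.40 and 4.21 FPKM in macrophages 5 to 8 and 0.400, 0, 0 and 0 in microglia 1 to 4 (adjusted p = 0.0497). The call of Irf1 was lost without macrophage 6 (0.0588) and without microglia 2 and 3 (log2 fold change 1.95 in place of 3.34, adjusted p = 0.157), and that of Ptgs2 without any single library other than macrophage 7. With no filter on low values both calls were lost (limma adjusted p = 0.234 for Irf1 and 0.374 for Ptgs2). Ptgs2, like Ccl17, entered the test through the macrophage libraries alone. Of the untested genes of classical activation, also named after their values were seen, Fpr2 had 3.35, 3.79, 0.0382 and 4.05 FPKM in macrophages 5 to 8. In microglia it had at most 0.304. Gpr18 had 10.1, 0, 0.0377 and 9.44 FPKM in macrophages 5 to 8 and 0, 0.0435, 0 and 6.92 in microglia 1 to 4.

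Of 20 other scavenger and endocytic receptors, 9 were tested, 1 was called higher and 0 lower, with 4 at an unadjusted p below 0.05 and a median of 0.10. Among these 4, Clec7a (log2 fold change -1.46) and Cd5l (-1.42) were lower in macrophages. Clec4n, the fungal receptor dectin-2, had 45.7, 146, 16.7 and 46.8 FPKM in macrophages 5 to 8 and 4.36, 0, 0.759 and 0 in microglia 1 to 4 (log2 fold change 4.81 ± 0.74 SE, limma adjusted p = 0.000346). It ranked the macrophage libraries as Mgl2 did. Of the 6 called genes of the lists, Clec4n alone kept its call (adjusted p = 0.0155) once Y-linked expression was a term. The others were Ccl17, Irf1, Ptgs2, Jak2 and Myd88. With no filter on low values all 6 lost their calls, with a limma adjusted p of 0.0640 for Clec4n.

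**Figure D4:**
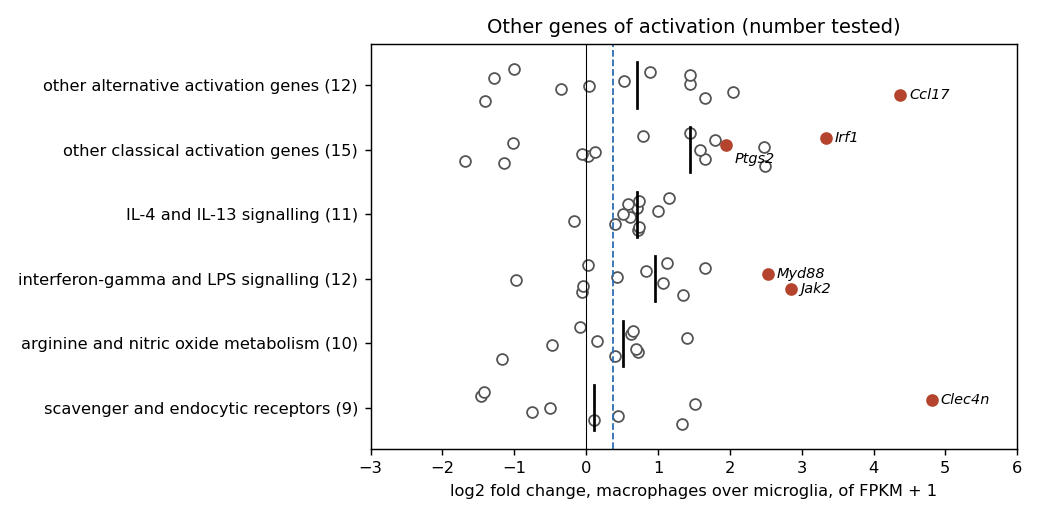
Each circle is a tested gene of a list, placed by its log2 fold change of FPKM + 1, macrophages over microglia; filled circles are genes with an adjusted p below 0.05, black bars are list medians, and the dashed line is the median of all tested genes, 0.37. The called genes, Ccl17, Irf1, Ptgs2, Myd88, Jak2 and Clec4n, all lie to the right, and the medians lie between 0.10 and 1.45.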

How the data were processed

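Messenger RNA was profiled in 8 libraries, grouped by the tissue subtype in the labels. Values are FPKM, which the authors made and deposited per gene; the submitters' processing notes name mm9, Cufflinks 2.1.1 and bcl2fastq 1.8.4. Aligner, annotation and use of strand: not given in the sources used here. Rows sharing a symbol were summed, and 173 symbols with a failed or low-data status in any library were left out. Genes that reached 1 FPKM in 4 or more of the 8 libraries were tested with limma 3.58.1 in R 4.3.3 (log2(FPKM + 1), intensity trend, two-sided, Benjamini-Hochberg over all genes). FPKM are not counts, so no count test was run, and fold changes on this scale understate those of low genes. Locus starts of the files were raised by 1 base to count from 1. Depth was estimated from 6322 genes with 1 transcript of at least 800 bases in GENCODE, assuming fragments of 150 bases; fragment numbers are approximate and no test used them. A marker under 1 FPKM everywhere was called too low to measure. Named genes are the 10 markers, up to 4 called genes of each of 6 lists (or the most abundant tested gene), the 3 genes most like each tested marker, and near copies. Clones, predicted genes and small RNAs were left out of the search for like genes. The fit was also run on simulated, normally distributed values with known changes. These did not copy the undetected values or the scale differences of the libraries, so that run does not bear on calls of low markers. Markers and lists were chosen with earlier results of these data known. Tables used Python 3.11.15, pandas 2.3.3 and numpy 2.4.6.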

Additional observations from a re-analysis of the deposited data

Results flagged for a closer look

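A library stood far from the other 3 of its population in 7 of the 34 sets of values checked (the 10 markers and the 8 named genes of the lists, in each population, without the sets listed at 0 throughout). The cutoff would flag about 1 in 20 sets of normally distributed values. FPKM with values at or near 0 are not so distributed, and a library above 0 beside others at 0 is always flagged. No excess over chance can therefore be read from the number flagged. Nos2 was 1.42 FPKM in macrophage 7, and between 0 and 0.103 in the other macrophage libraries. Cd163 was 0.729 FPKM in the same library, and at most 0.0544 in the other macrophage libraries. Retnla was 1.59 FPKM in macrophage 6, and between 0.0986 and 0.317 in the others. Marco was 6.90 FPKM in microglia 4, and at most 0.0271 in the other microglial libraries. Ccl17 was 0.164 FPKM in microglia 3, Ptgs2 was 0.400 FPKM in microglia 1, and both were listed at 0 in the other microglial libraries. Slc3a2 was 74.7 FPKM in microglia 2, and between 50.7 and 51.3 in the others.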

How the results depend on the processing

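Of the tested markers, 3 were called and 222 of 9307 genes overall. With no filter on low values 1 marker and 51 genes were called, with at least 5 FPKM in at least 4 libraries 1 marker (2 then tested) and 132 genes, and once Y-linked expression was a term 0 markers (3 at an unadjusted p below 0.05) and 25 genes. By the exact permutation test, adjusted over all genes, 0 markers and 0 genes were called (4 markers and 714 genes at an unadjusted p below 0.05). With 4 against 4 libraries its smallest p is 0.0286, and a call would need many more genes at that p than the 714 found. Those 4 markers are the ones that entered through the macrophage libraries alone, which fixed their permutation p. A pseudocount of 0.1 gave 136 genes. Leaving out 1 library, with the tested genes held fixed, gave between 2 and 4 markers and between 118 and 257 genes, 121 without macrophage 5 and 118 without macrophage 8. Calls split into 156 higher and 66 lower; 107 and 111 after upper-quartile scaling, 126 and 104 by median of ratios, 171 and 147 with quantile normalization, and 78 and 78 without macrophage 6. The median log2 fold change of all tested genes was -0.03, 0.12 and -0.03 under these 3 scalings and 0.48 with equal sums. Mgl2, Clec10a and Chi3l3 were called under all 4 scalings. Msr1 changed sign with the Y-linked term (-0.74), without microglia 2 and 3 (-0.66) and without microglia 3 (-0.015, within a range of -0.015 to 1.09 over single libraries left out), and Il2rg after upper-quartile scaling (-0.15) and with the Y-linked term (-0.059). The cause was not tested. No paired analysis was possible because the groups share no replicate number. At the estimated depth, markers under about 3 fragments cannot be told from 0.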
